A study of Drosophila melanogaster with 6 samples.

Results

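The genes described here store, carry and sense iron in the fly. They are the ferritin subunit genes *Fer1HCH*, *Fer2LCH* and *Fer3HCH*, the transferrin genes *Tsf1*, *Tsf2* and *Tsf3*, the metal transporter gene *Mvl*, the mitochondrial iron importer gene *mfrn*, and the iron regulatory protein genes *Irp-1A* and *Irp-1B*. They were chosen by gene symbol, and all 10 were found among the 14604 genes of the deposited RNAseq table. Expression was measured in heads of *Canton S* wild type males aged 3 to 5 days, pooled within each library. The control libraries (sucrose replicates 1, 2 and 3) came from flies given 2.5% sucrose for 12 h. The treated libraries (PQ replicates 1, 2 and 3) came from flies given 5 mM PQ in the same sucrose for the same 12 h. PQ (paraquat) is a herbicide that cycles between redox states in cells and produces superoxide. The comparison asks how the transcripts of iron handling differed between the feedings before degeneration is seen.

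Iron is needed for respiration, heme and iron-sulfur clusters, and free ferrous iron turns hydrogen peroxide into hydroxyl radicals. Flies hold iron in ferritin, a cage of heavy subunits, which oxidise the iron, and light subunits, which help the mineral core to form. Unlike in mammals, most insect ferritin lies in the secretory pathway and the hemolymph. Transferrin carries iron between organs, NRAMP-type carriers such as Mvl move it across membranes with other divalent metals, and mitoferrin brings it into mitochondria. Iron regulatory proteins are relatives of aconitase. Fly Irp-1A can bind iron-responsive elements in messenger RNA, whereas Irp-1B is known as a cytosolic aconitase that does not bind them.

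Values are RPKM, reads scaled by transcript length and by the mapped reads of the library, so levels can be set side by side between genes. No value in the table is below 1, and 34.8% to 35.5% of the genes of each library stand at exactly 1, which was read as a floor. A total of 4751 genes never exceeded this floor. The test, limma on log2(RPKM + 0.5), was fitted to the 9853 that did, with Benjamini-Hochberg adjustment over all of them and a threshold of 0.05. The summed RPKM ranged from 452656 to 494293 across libraries, and read counts per gene are unknown. Marker genes of photoreceptors, which are numerous in the head, summed to between 16739 and 18442 RPKM in the sucrose-fed libraries and between 16203 and 17685 RPKM in the PQ-fed libraries. Of 5 gut markers, 4 were at the floor in every library. In bulk heads, fewer cells of a type and less RNA per cell cannot be told apart.

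No iron gene passed the test after adjustment, while the genes of both secreted ferritin subunits stood higher on average in the PQ-fed libraries. The mean RPKM was 1.25-fold higher for *Fer1HCH* and 1.20-fold higher for *Fer2LCH*. Of the 10 genes, 9 were above the floor and tested. With limma, 0 of the 9 passed at an adjusted p under 0.05, where 0.0812% of all tested genes did (8 of 9853), and all 9 had an adjusted p of 0.951. Before adjustment, 2 had p under 0.05, both in the higher direction, against 3.89% of all tested genes, made up of 2.21% higher and 1.67% lower. The libraries of the feedings did not overlap for 1 of the 9, *Fer1HCH*, against 7.57% of all tested genes, made up of 3.11% higher and 4.47% lower. The log2 fold change was above 0 for 6 of the 9, against 42.2% of all tested genes, with a median of 0.14 against −0.02 over all tested genes. When limma weighted the libraries by estimated quality, *Fer1HCH* (adjusted p = 0.0190) and *Fer2LCH* (adjusted p = 0.0373) passed, among 245 genes of the 9853. These weights rested mainly on sucrose replicate 3 and PQ replicate 2.

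**Figure D1:**
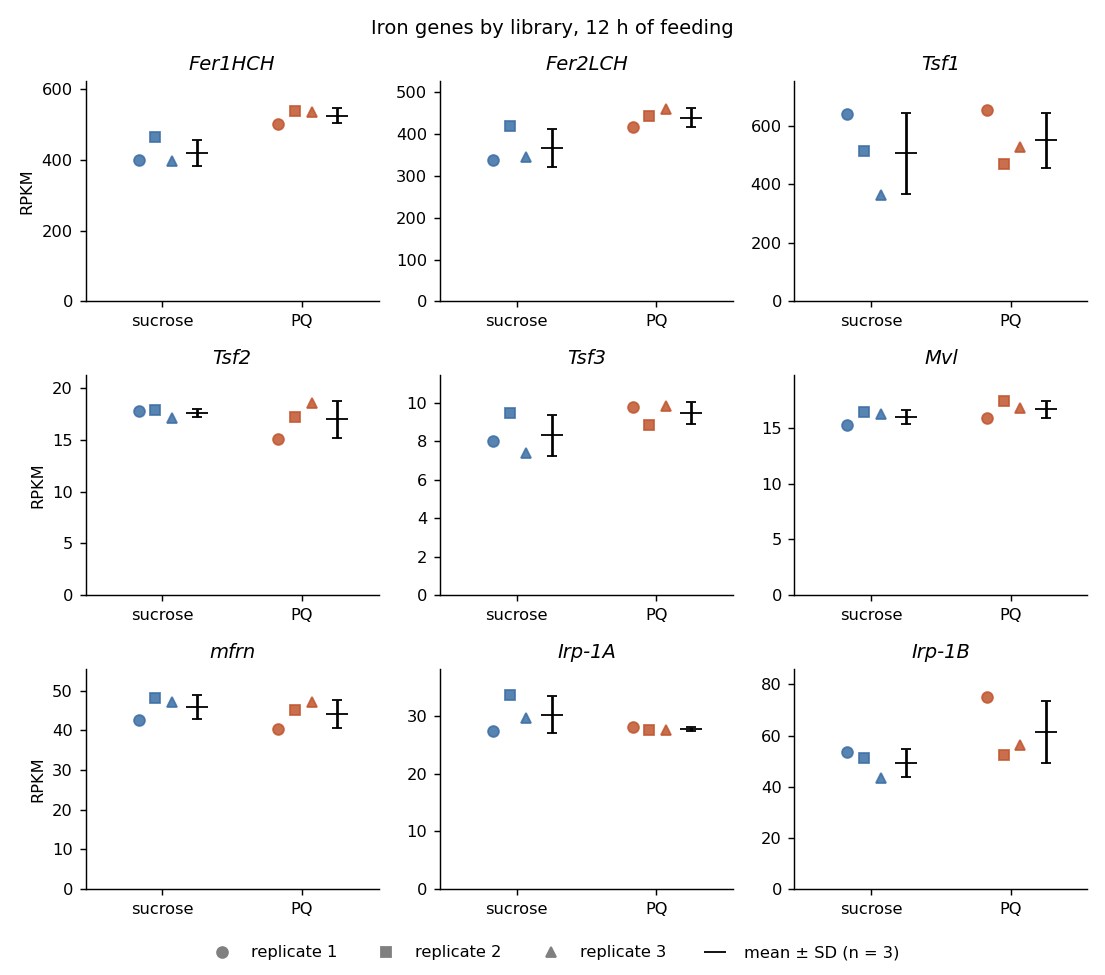
RPKM of the 9 iron genes above the floor, a panel for each, in the sucrose-fed (blue) and PQ-fed (orange) libraries. Each point is a library, its shape the replicate number, with the mean ± SD (n = 3) beside it, and each vertical axis starts at 0 with its own scale. Of these genes only *Fer1HCH* has all PQ-fed libraries beyond all sucrose-fed ones.

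The levels in sucrose-fed heads spanned a wide range. Transferrin and the secreted ferritin subunits formed a high group, with mean levels of 506 RPKM for *Tsf1*, 419 RPKM for *Fer1HCH* and 367 RPKM for *Fer2LCH*. They ranked 139th, 166th and 204th of the tested genes by mean level, whose median was 16.4 RPKM. *Irp-1B* and *mfrn* followed at 49.3 and 46.0 RPKM, then *Irp-1A* at 30.3, *Tsf2* at 17.6, *Mvl* at 16.0 and *Tsf3* at 8.31 RPKM. Neighbours in this order were not always separate. *Tsf1* was above *Fer1HCH* in 3 of 6 libraries. *Fer1HCH* was above *Fer2LCH* in 6 of 6 libraries, although their sucrose-fed ranges overlapped. *Irp-1B* was above *mfrn* in 5 of 6 libraries, with overlapping sucrose-fed ranges, and *Tsf2* was above *Mvl* in 4 of 6.

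*Fer1HCH* encodes the heavy subunit of secreted ferritin. The dm3 genome, used for all positions given here unless another is named, places it on chromosome 3R, 26211290 to 26213851 on the minus strand. The sucrose-fed libraries held 400.0, 463 and 395 RPKM, and the PQ-fed libraries 502, 538 and 535 RPKM, for replicates 1, 2 and 3. Every PQ-fed library was above every sucrose-fed one, and sucrose replicate 2 came nearest to the PQ-fed values. The means were 419 ± 37.7 and 525 ± 20.2 RPKM (SD, n = 3 each). On the log2 scale the difference was 0.33 (SE 0.09, 95% interval 0.12 to 0.54), a fold of 1.25 with limits of 1.08 and 1.45. Its unadjusted limma p of 0.00829 ranked 75th of the 9853 tested genes, and the adjusted p was 0.951. An exact permutation test gave a two-sided p of 0.10, the smallest that 3 libraries against 3 allow.

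*Fer2LCH*, the light subunit gene of the same cage, is its neighbour on the same chromosome 3R, 26213554 to 26216306 on the plus strand. It measured 337, 419 and 346 RPKM in the sucrose-fed libraries and 416, 444 and 459 RPKM in the PQ-fed ones. PQ replicate 1 fell just under sucrose replicate 2, so the groups overlapped. The means were 367 ± 45 and 439.7 ± 21.7 RPKM (SD, n = 3 each). The log2 fold change was 0.27 (SE 0.10, 95% interval 0.02 to 0.51), with an unadjusted limma p of 0.0379 and an adjusted p of 0.951. The exact permutation p was 0.20.

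**Figure D2:**
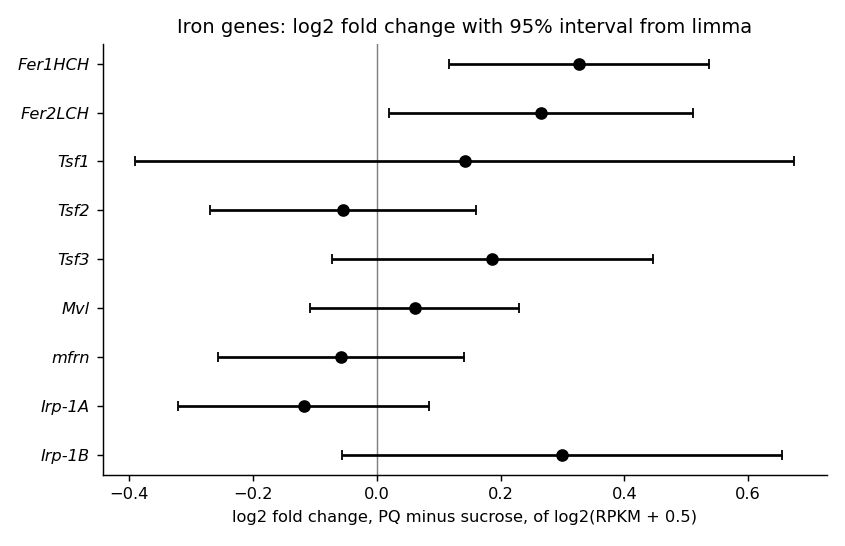
Log2 fold change, PQ-fed minus sucrose-fed, of the 9 tested iron genes on log2(RPKM + 0.5), with unadjusted 95% intervals from limma. The intervals of *Fer1HCH* (0.12 to 0.54) and *Fer2LCH* (0.02 to 0.51) lie above 0, and the other 7 include 0.

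The ferritin subunit genes varied together across libraries. Over the 6 libraries, log2(RPKM + 0.5) of *Fer1HCH* and *Fer2LCH* had a Pearson r of 0.97 (exact permutation p = 0.0111) and a Spearman rho of 0.83 (exact permutation p = 0.0583). Without the 2 libraries farthest from the median of *Fer1HCH*, sucrose replicates 1 and 3, r was 0.81 over 4 libraries (exact permutation p = 0.25), so the relation was not shown without them. After the group means were taken away, r was 0.97 over the same 6 libraries, which leaves the spread that libraries of 1 feeding share. Among all other tested genes, *Fer2LCH* ranked 15th of 9852 in likeness to *Fer1HCH*. Among 7791 other genes with a mean of at least 5 RPKM, the 3 most alike were *CG8206*, *ade3*, a purine synthesis gene, and *MtnA*, a metallothionein gene. Each had an r of 0.99, the highest values of a wide search over 6 libraries. Their log2 fold changes were 0.25, 0.60 and 0.40, so the likeness includes the difference between the feedings. Together the ferritin pair made up 0.160% to 0.212% of the summed RPKM of a library.

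**Figure D3:**
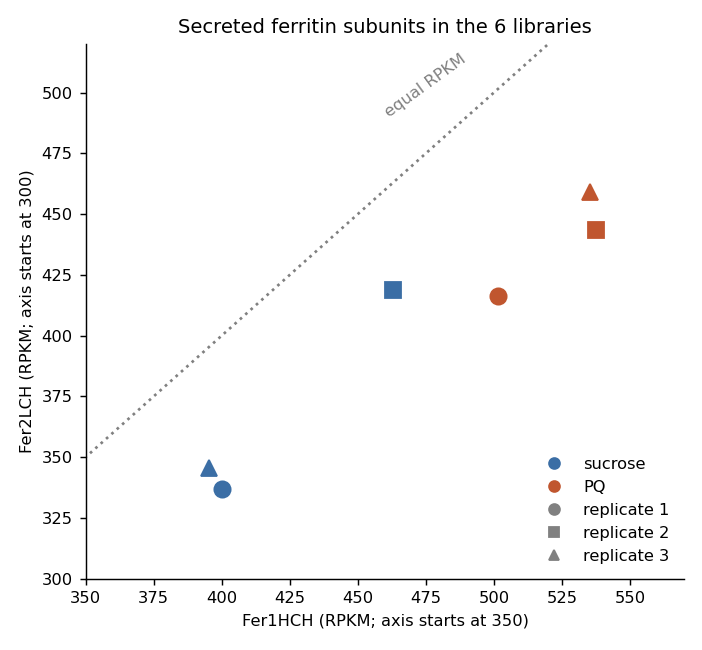
RPKM of *Fer2LCH* against *Fer1HCH*, each point one of the 6 libraries, coloured by feeding and shaped by replicate number, with axes that do not start at 0 and a dotted line of equal RPKM. The PQ-fed libraries lie at the upper right, and sucrose replicate 2 lies nearest to them.

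The balance of the subunits was close to even in every library. The ratio of *Fer1HCH* to *Fer2LCH* was 1.19, 1.10 and 1.14 in the sucrose-fed libraries and 1.21, 1.21 and 1.17 in the PQ-fed ones. The ranges overlapped, and the means of 1.15 ± 0.0410 and 1.19 ± 0.0247 (SD, n = 3 each) gave an exact permutation p of 0.20, or 0.30 after adjustment over 3 ratios compared. The values carry a limit that comes from the position of the genes. They stand head to head, and their dm3 intervals share 298 bases on opposite strands, 11.6% of *Fer1HCH* and 10.8% of *Fer2LCH*. In the Ensembl annotation of the newer BDGP6 build, 118 exonic bases are shared, all 118 in the 5′ UTR of both genes. Whether the counting used strand is not given in the sources used here, so reads from the shared stretch cannot be assigned to 1 gene. The part of such reads in the correlation of the ferritin genes was not tested. The same annotation lists 9 transcripts of *Fer1HCH* and 5 of *Fer2LCH*. The table gives 1 value per gene, so *Fer1HCH* transcripts with and without the iron-responsive element in their leader are not separated.

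*Fer3HCH*, the heavy chain gene of mitochondrial ferritin, is found on chromosome X, 13001507 to 13002129. It stood at the floor of 1 RPKM in all 6 libraries and was not tested. Its true level can be any lower value, so no difference was detectable.

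*Tsf1* encodes the main iron carrier of the hemolymph, which is also known to rise in immune challenge, and lies on chromosome X from 18281965 to 18284377. It varied most among the iron genes. The sucrose-fed libraries held 642, 513 and 365 RPKM and the PQ-fed libraries 655, 469 and 526 RPKM. The groups overlapped almost wholly, and replicate 1 was highest in both. The means were 506 ± 138.5 and 550.0 ± 95.1 RPKM (SD, n = 3 each), with a log2 fold change of 0.14 (SE 0.22, 95% interval −0.39 to 0.67) and an adjusted limma p of 0.951. Its residual SD was at the 94.4th percentile of the tested genes. Without sucrose replicate 3 the log2 fold change was −0.07, and without sucrose replicate 1 it was 0.33.

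Among 7791 other genes with a mean of at least 5 RPKM, the 3 closest to *Tsf1* across the 6 libraries were *Chit*, *Npc2g* and *sPLA2*. *Chit* is a chitinase-like gene and *sPLA2* a secreted phospholipase gene. The r was 0.99 for each, with log2 fold changes of 0.09, 0.11 and 0.12. Fat body makes most circulating transferrin. Of 12 fat body markers, 10 were tested and 0 passed after adjustment with limma, against 0.0812% of all tested genes. At an unadjusted p under 0.05 there were also 0, against 3.89% of all tested genes. The summed level of these markers was 1235 to 1987 RPKM in the sucrose-fed and 1492 to 1683 RPKM in the PQ-fed libraries. The 14 antimicrobial peptide genes summed to 470 to 1821 RPKM in the sucrose-fed and 490 to 1104 RPKM in the PQ-fed libraries. Their part in the spread of *Tsf1* was not tested.

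*Tsf2*, the melanotransferrin relative needed for septate junctions between epithelial cells, lies on chromosome 3L from 12523536 to 12526821. It measured 17.8, 17.9 and 17.1 RPKM with sucrose and 15.1, 17.3 and 18.6 RPKM with PQ. The sucrose-fed values lay inside the PQ-fed range. The log2 fold change was −0.05 (SE 0.09, 95% interval −0.27 to 0.16).

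*Tsf3*, the third transferrin gene, lies on chromosome 2R from 12114031 to 12117379. It measured 8.03, 9.49 and 7.41 RPKM with sucrose and 9.79, 8.84 and 9.84 RPKM with PQ. Only sucrose replicate 2 reached into the PQ-fed range, and the log2 fold change was 0.19 (SE 0.11, 95% interval −0.07 to 0.45). All 3349 bases of its dm3 interval lie inside that of *CG15706* on the other strand, which held 9.46 to 11.7 RPKM across the libraries. Exonic bases shared by this pair were not counted, so whether reads of *CG15706* enter the *Tsf3* value is not known.

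*Mvl*, the fly NRAMP carrier of iron and manganese, lies on chromosome 3R from 16877105 to 16886517. It was one of the steadiest genes, with a residual SD at the 11.7th percentile. Its levels were 15.3, 16.4 and 16.2 RPKM with sucrose and 15.9, 17.4 and 16.8 RPKM with PQ. The groups overlapped, and the 95% interval of the log2 fold change ran from −0.11 to 0.23 around 0.06.

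*mfrn*, the mitoferrin gene, lies on chromosome 3R from 23768511 to 23773731. It measured 42.6, 48.3 and 47.1 RPKM with sucrose and 40.3, 45.2 and 47.1 RPKM with PQ. The groups overlapped, and the log2 fold change was −0.06 (SE 0.08, 95% interval −0.26 to 0.14).

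Neither iron regulatory protein gene passed the test, and both 95% intervals include 0. *Irp-1A*, on chromosome 3R from 18547042 to 18550325, held 27.4, 33.7 and 29.8 RPKM with sucrose and 28.2, 27.6 and 27.6 RPKM with PQ. The PQ-fed values were nearly equal and lay inside the sucrose-fed range. The means were 30.3 ± 3.18 and 27.8 ± 0.363 RPKM (SD, n = 3 each), with a log2 fold change of −0.12 (SE 0.08, 95% interval −0.32 to 0.08). Leaving out sucrose replicate 2 gave −0.04, and leaving out sucrose replicate 1 gave −0.19.

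*Irp-1B*, on chromosome 3R from 6234338 to 6238638, held 53.7, 51.0 and 43.3 RPKM with sucrose and 75.0, 52.6 and 56.4 RPKM with PQ. PQ replicate 1 stood above the rest, and PQ replicate 2 lay below sucrose replicate 1. The means were 49.3 ± 5.43 and 61.3 ± 12.0 RPKM (SD, n = 3 each), with a log2 fold change of 0.30 (SE 0.15, 95% interval −0.06 to 0.65) and an adjusted limma p of 0.951. Without PQ replicate 1 it was 0.15.

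The level of *Irp-1B* was above that of *Irp-1A* in every library. The ratio was 1.96, 1.51 and 1.45 with sucrose and 2.66, 1.90 and 2.05 with PQ. The means of 1.64 ± 0.276 and 2.20 ± 0.401 (SD, n = 3 each) were not separated, since sucrose replicate 1 exceeded PQ replicate 2 (exact permutation p = 0.20, or 0.30 adjusted over the 3 ratios).

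**Figure D4:**
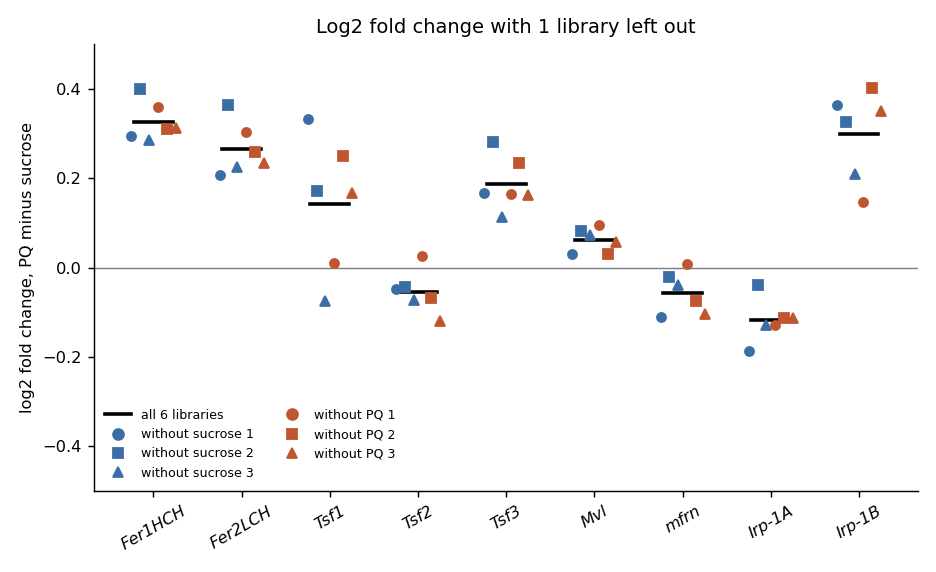
Log2 fold change of the 9 tested iron genes with all 6 libraries (black bars) and with each library left out in turn (blue for a sucrose-fed, orange for a PQ-fed library left out), limma being refitted each time. *Fer1HCH* stays between 0.29 and 0.40 and *Fer2LCH* between 0.21 and 0.36, while *Tsf1* spans −0.07 to 0.33.

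Of the listed genes for the use of iron, none passed limma after adjustment. All 10 genes of iron-sulfur cluster assembly were tested. At the adjusted and the unadjusted threshold 0 passed, against 0.0812% and 3.89% of all tested genes. A negative log2 fold change was found for 9, against 57.8% of all tested genes, and the median was −0.04. That median turned to 0.02 when sucrose replicate 2 was left out and was −0.11 when sucrose replicate 1 was. Among those with the smallest p were *Fdxh*, a ferredoxin gene, at 0.24 (SE 0.12), *l(1)G0136* at −0.13 (SE 0.11) and *mtacp1*, an acyl carrier protein gene, at −0.12 (SE 0.15). *Fdxh* was the exception with separate groups, at 10.5, 13.2 and 13.8 RPKM with sucrose and 14.1, 14.3 and 16.0 RPKM with PQ. Of all tested genes, 3.11% had separate groups in the higher direction. Mitochondrial aconitase and the subunits of succinate dehydrogenase, which carry such clusters or work beside them, had 5 of 5 negative log2 fold changes between −0.15 and −0.08. At either threshold of limma 0 of the 5 were called, against 0.0812% and 3.89% of all tested genes. The groups were separate for 0, against 7.57% of all tested genes. Their median of −0.11 was −0.02 without PQ replicate 1, −0.03 without sucrose replicate 2 and −0.22 without sucrose replicate 1. *Acon* held 439.9 ± 37.6 RPKM with sucrose and 417 ± 24.3 RPKM with PQ (SD, n = 3 each).

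Heme synthesis and breakdown gave 0 of 10 genes past the adjusted threshold of limma. At the unadjusted threshold 1 was higher and 0 were lower, against 2.21% and 1.67% of all tested genes. The median log2 fold change was −0.03. It turned to 0.04 when sucrose replicate 2 was left out and to 0.02 when PQ replicate 1 was. It was −0.09 when sucrose replicate 1 was left out. The higher gene encodes porphobilinogen deaminase, an early enzyme of heme synthesis. It held 54.7, 57.5 and 54.4 RPKM with sucrose and 62.2, 65.6 and 63.1 RPKM with PQ, without overlap. Its log2 fold change was 0.20 (SE 0.06), with an adjusted p of 0.951 from limma. Over all tested genes, 3.11% had separate groups in the higher direction. Ferrochelatase, which inserts the iron, held 27.2 ± 3.37 and 27.0 ± 3.10 RPKM (SD, n = 3 each). The heme oxygenase gene *Ho*, which releases iron from heme, held 40.2 ± 3.59 and 37.9 ± 2.52 RPKM (SD, n = 3 each).

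Among 8 further genes of metal and iron handling, 2 were at the floor and 0 of the other 6 passed after adjustment with limma. At the unadjusted threshold 1 was higher and 0 were lower, against 2.21% and 1.67% of all tested genes. The higher gene was *CG7816*, also named *Zip99C*, a ZIP13 relative known in the fly to move iron into the secretory pathway, where ferritin is loaded. It held 23.9, 23.0 and 24.9 RPKM with sucrose and 27.4, 30.5 and 32.9 RPKM with PQ. These groups did not overlap, which held in the higher direction for 3.11% of all tested genes. The means were 23.9 ± 0.920 and 30.3 ± 2.73 RPKM (SD, n = 3 each), with a log2 fold change of 0.33 (SE 0.08) and an adjusted p of 0.928 from limma.

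**Figure D5:**
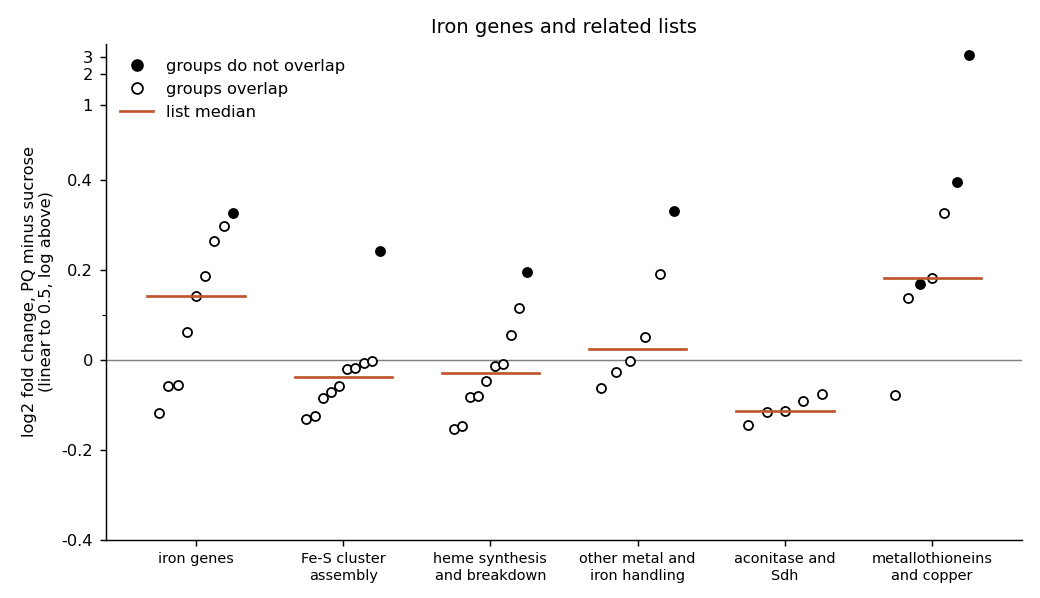
Log2 fold change, PQ minus sucrose, of each tested gene of the iron set and of the related lists, filled where the groups do not overlap, with list medians as orange bars. The vertical axis is linear up to 0.5 and logarithmic above. The medians run from −0.11 for aconitase and succinate dehydrogenase to 0.18 for metallothioneins and copper transport.

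Metallothioneins are small metal-binding proteins. The list that holds them together with *MTF-1* and copper transport genes had the highest median of the metal lists, a log2 fold change of 0.18. Of 10 entries 9 were found, 7 were tested and 0 passed after adjustment with limma. At the unadjusted threshold 2 were higher and 0 lower, against 2.21% and 1.67% of all tested genes. Groups were separate in the higher direction for 3, against 3.11% of all tested genes. *MtnD* held 4.80, 9.18 and 3.78 RPKM with sucrose and 72.7, 49.2 and 41.0 RPKM with PQ, a log2 fold change of 3.14 with an adjusted p of 0.0501 from limma. *MtnA* held 736 ± 70.4 and 968 ± 64.5 RPKM (SD, n = 3 each), a log2 fold change of 0.40. *MTF-1*, the metal-responsive factor, had separate groups at a log2 fold change of 0.17, and *MtnB* reached above the floor in 2 PQ-fed libraries only.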

How the data were processed

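Heads of *Canton S* males were profiled by RNAseq, with 3 sucrose-fed and 3 PQ-fed libraries described as independent biological replicates. The methods name more replicates per feeding than these, and the others were not analysed here. The authors mapped 50-bp reads to dm3 with TopHat2 2.0 and deposited an RPKM per gene and library. Whether the deposited RPKM include trimmed means of M-values, and whether counting used strand, is not given in the sources used here. A further table deposited by the authors, of their own fold changes and p-values, was not used. Read counts per gene are unknown, so no count model was used and precision is that between libraries.

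The RPKM were not rescaled. On log2(RPKM + 0.5), limma 3.58.1 (R 4.3.3) was run (trended eBayes, Benjamini-Hochberg adjustment, threshold 0.05) on the 9853 genes above the floor of 1 RPKM in at least 1 library. Ratios and correlations were tested with exact permutation (scipy 1.17.1, Python 3.11.15, two-sided). The procedure was tested on simulated data. The iron genes and all lists were chosen with earlier results of these data known. Lists held 107 entries, of which 106 were found and 94 were tested. Named are all 10 iron genes, up to 4 genes per list with the smallest p, the 3 genes most like *Fer1HCH* and *Tsf1*, and a few others chosen after their values were seen: ferrochelatase, *Ho*, *Acon* and *CG15706*. One gene that the rule covers is not reported here. Same-numbered libraries correlated at 0.41, 0.06 and 0.05 in their deviations from group means, which is not above 0.1 for every pair, so numbers were not treated as pairs. Differently numbered libraries of the 2 feedings ran from −0.36 to 0.34. The highest were sucrose replicate 2 with PQ replicate 3 (0.34) and sucrose replicate 3 with PQ replicate 2 (0.21), and the rest were below 0. Whether libraries of the feedings shared a batch was not tested. Alternatives changed the pseudocount (0.1 or 1), the filter (none, or a mean of at least 5 RPKM), the scaling (trimmed means of M-values, quantile normalization or median centring), the eBayes step (untrended or robust), the weighting of libraries by quality, the replicate block, and the libraries used (each left out in turn, and both numbered 1 together). Figures were drawn with matplotlib 3.10.9.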

Additional observations from a re-analysis of the deposited data

How the results depend on the processing

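Over 18 alternatives, 0 iron genes passed limma's adjusted threshold in all but library quality weights, where 2 did, *Fer1HCH* (log2 fold change 0.42, adjusted p = 0.0190) and *Fer2LCH* (0.34, adjusted p = 0.0373). Over the alternatives the adjusted p of *Fer1HCH* ran from 0.0190 to 1 and that of *Fer2LCH* from 0.0373 to 1. The weights rested mainly on sucrose replicate 3 (4.57) and PQ replicate 2 (3.85), with the other 4 libraries between 0.355 and 0.860. Over all tested genes they called 245, 188 higher and 57 lower, against 8, all higher. The counts over all genes were 7 to 9 with a pseudocount of 1, a mean of at least 5 RPKM, trimmed means of M-values, median centring and robust eBayes, 5 with a pseudocount of 0.1, 1 with no filter (lower, of 14604 genes), 0 with quantile normalization (401 at an unadjusted p under 0.05), 0 without a trend (399), 0 without both libraries numbered 1 (862), and 4 with the replicate block, which called no iron gene. Leaving out 1 library gave 0 to 5, with 5 only without PQ replicate 1.

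The number of iron genes with separate groups was 1 of 9 (7.57% of all tested genes). It was 3 with trimmed means of M-values (8.02%), 2 with quantile normalization (7.98%) and 2 with median centring (8.49%). Both *Fer1HCH* and *Fer2LCH* were among them, higher with PQ, under these 3 scalings, and *Mvl* joined them with trimmed means of M-values. The number was 6 without both libraries numbered 1, where 42.0% of all genes had separate groups. With 1 library left out it was 1 to 4, where 12.9% to 30.7% did. Leaving out libraries can only add to such counts. The correlation of the ferritin genes was 0.97 without both libraries numbered 1 (exact permutation p = 0.0833) and 0.95 to 0.99 with 1 library left out (0.97, exact permutation p = 0.05, without PQ replicate 1). The log2 fold change changed sign for *Tsf1* (−0.075 without sucrose replicate 3, to 0.33), *Tsf2* (0.0022 with quality weights, 0.032 without both libraries numbered 1, −0.12 to 0.025 with 1 left out) and *mfrn* (−0.11 to 0.0072 with 1 left out, above 0 only without PQ replicate 1). No other iron gene changed sign.

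The causes of these shifts were not tested. The intervals given for each gene show which sizes of difference its libraries leave possible. Genes at the floor have no measured level, and reads of overlapping genes were not separated.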

Other observations

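Blood cell markers, which were not compared above, had 8 of 10 positive log2 fold changes, against 42.2% of all tested genes, with a median of 0.26. The median was 0.08 without PQ replicate 3, 0.44 without PQ replicate 1 and 0.60 without both libraries numbered 1. With a mean of at least 5 RPKM required, it was 0.18. With limma 0 passed after adjustment. At the unadjusted threshold 1 was higher and 0 were lower, against 2.21% and 1.67% of all tested genes. The higher gene, *He*, was near the floor, at 1.17, 1 and 1 RPKM with sucrose and 1.21, 1.55 and 2.14 RPKM with PQ. The summed level of the blood cell markers was 177 to 215 RPKM in the sucrose-fed and 169 to 233 RPKM in the PQ-fed libraries, so the sums overlapped. Of 13 tested antimicrobial peptide genes, 12 had a negative log2 fold change, against 57.8% of all tested genes, with a median of −0.69. Limma called 0 of the 13 at the adjusted or the unadjusted threshold, against 0.0812% and 3.89% of all tested genes. Separate groups were found for 0, against 7.57% of all tested genes. Dropping any single library kept the list median negative, in a range of −1.03 to −0.16. The weakest value, −0.16, arose when sucrose replicate 2 was dropped, so the size of the decrease depended strongly on that control library.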
